A study of Mus musculus with 22 samples.

Results

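The D-type cyclins (Ccnd1, Ccnd2 and Ccnd3), their kinases (Cdk4 and Cdk6) and the inhibitors of cyclin-dependent kinases (CDKs) Cdkn1b, Cdkn1c, Cdkn2b, Cdkn2c and Cdkn2d were examined in the lungs of mice exposed to multiwalled carbon nanotubes. The members were chosen by name, as the probes whose RefSeq accession maps to 1 of these 10 genes. They were found on 14 of the 55681 probes and make up 10 of 20018 named genes. All 10 passed the filter on expression. Female C57BL/6 mice, 8 weeks old at the start, received a single intratracheal instillation of 40 µl of vehicle, a saline with dilute bronchoalveolar lavage fluid, or of 18, 54 or 162 µg of Mitsui7, a multiwalled carbon nanotube, suspended in it. Lungs were collected 24 hours later from 5 control mice, 6 mice at 18 µg, 5 at 54 µg and 6 at 162 µg, and 1 array was run for each mouse. The dose entered the lung as a single bolus, the controls also received lavage fluid, and whole lung RNA was measured. Lung RNA carried the dye Cy5 and a reference RNA pooled from mouse cell lines carried Cy3 on each array, so that a level is given here as a log2 ratio of lung to reference. Levels of different probes cannot be set against each other on this scale. Mice of a group were separate animals.

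The passage from G1 into S phase is driven by D-type cyclins bound to Cdk4 or Cdk6, which phosphorylate the retinoblastoma protein and so release E2F transcription factors. The INK4 inhibitors (Cdkn2a, Cdkn2b, Cdkn2c and Cdkn2d) bind the kinases themselves and keep the cyclin away. The CIP/KIP inhibitors (Cdkn1a, Cdkn1b and Cdkn1c) bind the cyclin and kinase together and block cyclin E with Cdk2 above all. Most cells of an adult lung are at rest, and D-type cyclins respond to growth signals while Cdkn2b is known as a target of transforming growth factor β.

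Upstream sequence is shown for the member that rose at 162 µg (Cdkn2b) and for the kinase gene that Myc is known to regulate (Cdk4), since Myc was also measured. Each sequence is the 250 bases before the start site in the RefSeq table of GRCm38.p6, 5′ to 3′ on the strand of the gene. In the Cdkn2b sequence (chr4:89311033-89311282, minus strand) the capitals mark TGACGTCA, the cyclic AMP response element. In the Cdk4 sequence (chr10:127063285-127063534, plus strand) they mark CACGTG, the E box that Myc and its relatives bind.
Cdkn2b: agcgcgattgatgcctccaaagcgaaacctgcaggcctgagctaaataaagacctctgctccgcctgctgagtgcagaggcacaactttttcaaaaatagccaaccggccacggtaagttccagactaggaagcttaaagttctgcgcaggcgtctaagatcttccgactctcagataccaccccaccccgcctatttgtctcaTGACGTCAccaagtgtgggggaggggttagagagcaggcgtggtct
Cdk4: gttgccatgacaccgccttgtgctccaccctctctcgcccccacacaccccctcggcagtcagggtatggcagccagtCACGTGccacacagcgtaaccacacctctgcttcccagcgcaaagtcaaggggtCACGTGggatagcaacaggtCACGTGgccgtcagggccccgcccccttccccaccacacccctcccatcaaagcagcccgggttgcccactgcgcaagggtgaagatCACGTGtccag
TGACGTCA was found in 1.55% of 32851 promoter windows of this length and CACGTG in 6.02%. The Cdkn2b window held 1 match to TGACGTCA, which began at position -46 from the start site. The Cdk4 window held 4 matches to CACGTG, at positions -172, -118, -98 and -11. Both motifs read the same on both strands and were counted once at each position. The other motifs searched, on both strands, were GGGCGG (the GC box, in 32.7% of windows), TTTCGCG or TTTGGCG (E2F, in 1.93%), TGANTCA (AP-1, in 6.75%) and TGTTTAC (forkhead, in 3.17%), and none of the 4 was found in the Cdkn2b window. The table held 7 of the 10 members, and the motifs were picked after the sequences had been seen.

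At 162 µg, Cdkn2b was higher than in control lungs by 1.84-fold, and it was the only one of the 10 members called against controls at any dose. A gene was called where the Benjamini-Hochberg adjusted p of limma was at most 0.05, the change was at least 1.5-fold and the gene was expressed. No member was called at 18 µg, where 2.07% of 16436 expressed genes were called, and none at 54 µg, where 0.389% were called. At 162 µg 1 of 10 was called, in the higher direction, against 6.87% of expressed genes in either direction and 3.34% in that direction. These shares do not set the members apart from all genes. At an unadjusted p below 0.05 there were 4 members at 18 µg (22.3% of expressed genes), 1 at 54 µg (13.9%) and 3 at 162 µg (28.9%). At 18, 54 and 162 µg the members had median log2 fold changes of 0.16, 0.053 and 0.11, beside -0.021, -0.012 and -0.0074 over all expressed genes. At 18 µg 1 member, Cdkn1c, had all exposed mice below all controls, which held for 1.99% of expressed genes.

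Between doses, 2 members were called higher at 162 µg than at 18 µg, Cdkn1c and Cdkn2b, where 4.99% of expressed genes were called and 3.33% were called higher. None was called for 54 µg against 18 µg (0.0304% of expressed genes). There 4 members had an unadjusted p below 0.05, beside 15.1% of expressed genes. None was called for 162 µg against 54 µg (0% of expressed genes), where 2 members had such a p, beside 12.4% of expressed genes. For 162 µg against 18 µg the number with an unadjusted p below 0.05 was 6 of 10, beside 26.5% of expressed genes.

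**Figure D1:**
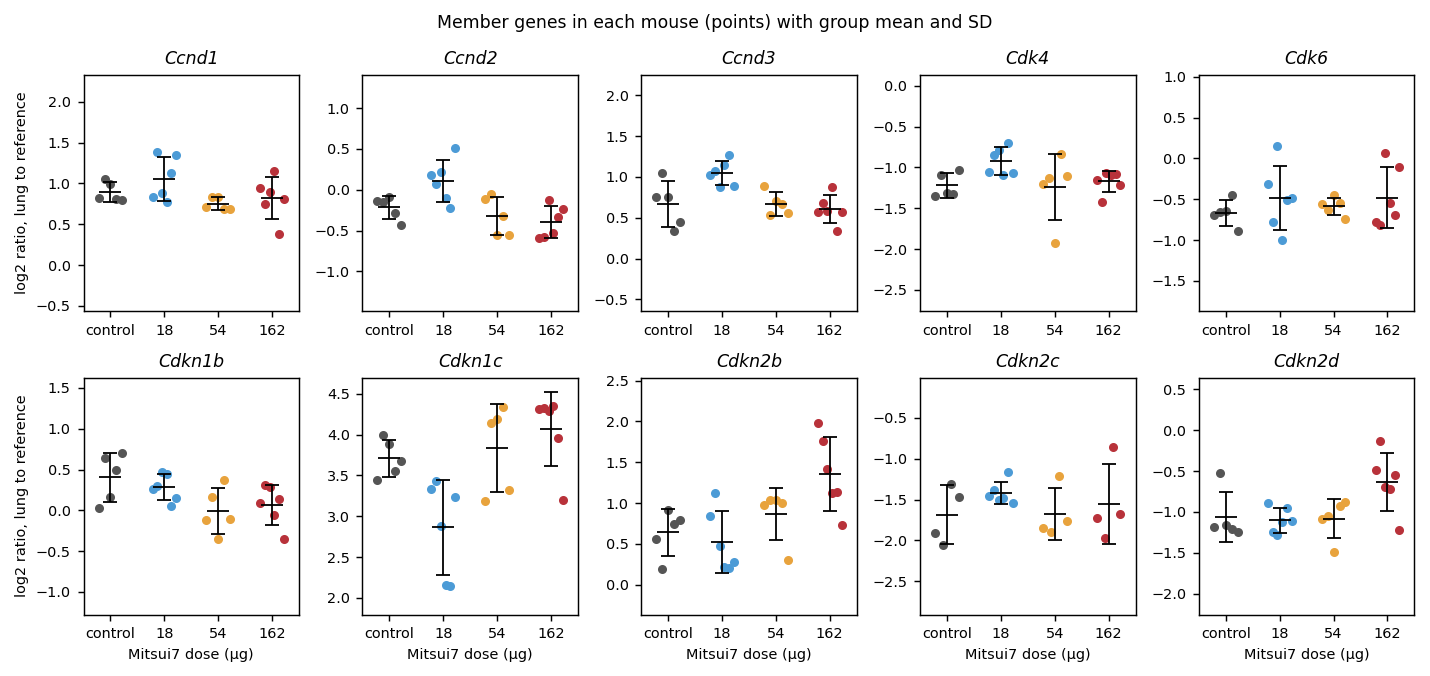
Log2 ratio of lung to reference RNA for the brightest probe of each member (vertical axis, the same span in each panel) in control mice and at 18, 54 and 162 µg Mitsui7 (horizontal axis). Points are mice, and bars give the group mean and SD. For Cdkn2b 5 of the 6 mice at 162 µg lie above the highest control, and for Cdkn1c all 6 mice at 18 µg lie below the lowest control.

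Among the INK4 inhibitors, Cdkn2b (p15, an inhibitor of Cdk4 and Cdk6) had log2 ratios of 0.55, 0.19, 0.92, 0.75 and 0.79 in the 5 control lungs. The ratio ran from 0.20 to 1.12 with a median of 0.37 in the 6 lungs at 18 µg. At 54 µg it was 0.97, 1.04, 1.03, 1.00 and 0.30, and at 162 µg it ran from 0.74 to 1.98 with a median of 1.27. The lungs at 18 µg overlapped the controls, 4 of 5 lungs at 54 µg lay just above the highest control, and 5 of 6 at 162 µg lay above it. Controls averaged 0.64 ± 0.28 (SD, n = 5), and the lungs at 162 µg averaged 1.36 ± 0.46 (SD, n = 6). The fitted log2 fold change of Cdkn2b was 0.068 (standard error, SE, 0.18, adjusted p = 0.909 in limma) at 18 µg, 0.43 (SE 0.19, adjusted p = 0.520) at 54 µg and 0.88 (SE 0.18, 95% interval 0.50 to 1.25, adjusted p = 0.00681) at 162 µg. Cdkn2b was also higher at 162 µg than at 18 µg, by a log2 fold change of 0.81 (SE 0.16, adjusted p = 0.00908 in limma), and the difference between 162 and 54 µg of 0.44 did not pass (adjusted p = 0.515 in limma).

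A second, dimmer probe of Cdkn2b was read on the same arrays. In control lungs its log2 ratio was -0.28, -0.16, 0.18, 0.14 and -0.00359, and at 162 µg it ran from 0.57 to 1.32 with a median of 0.76. All 6 lungs at 162 µg were above all 5 controls on this probe, beside 5 of 6 on the brightest. The share of expressed genes with such a separation at 162 µg is not given here. Its log2 fold change was 0.35 (adjusted p = 0.413 in limma) at 18 µg, 0.66 (adjusted p = 0.264) at 54 µg and 0.99 (SE 0.19, adjusted p = 0.00519) at 162 µg. Between 162 and 18 µg the second probe of Cdkn2b differed by 0.64 (adjusted p = 0.0517 in limma) and just missed the call that the brighter probe passed.

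The arrays lay on 7 slides, 2 of them without a control, and slide was a term of the fit. On the 4 slides that held both a control and a 162 µg lung, Cdkn2b was higher at 162 µg on 4 of 4, by a mean of 0.91 on the log2 scale (SD 0.62, from 0.34 to 1.79). Between 162 and 18 µg it was higher on 5 of 5 slides, by a mean of 0.82 (SD 0.20). When single mice were omitted, the log2 fold change of Cdkn2b at 162 µg was lowest at 0.64 when control replicate 2 was absent and highest at 1.01 when control replicate 5 was, and the call was kept in all 22 fits. Without the slide term it was 0.72 (adjusted p = 0.0554 in limma), and in a fit of the control and 162 µg groups alone 0.91 (adjusted p = 0.0540 in limma), and the call was lost in both. It was lost too where arrays were centred on their median (0.54, adjusted p = 0.529 in limma), which moved the median of all genes to -0.18. Relative to that median the log2 fold change was 0.72.

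**Figure D2:**
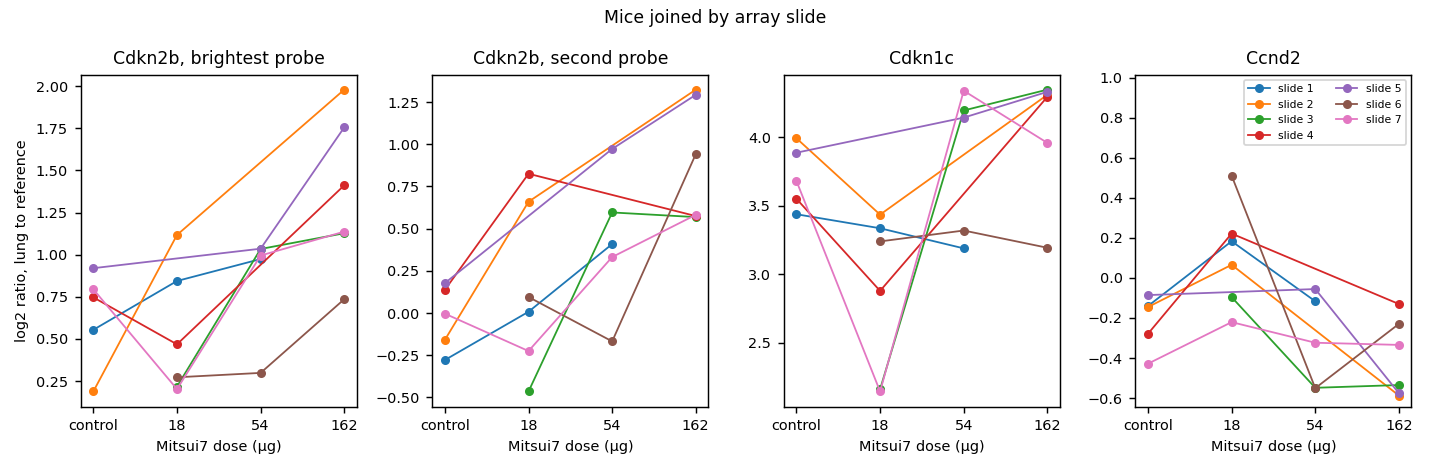
Log2 ratio of lung to reference (vertical axis) by Mitsui7 dose in µg (horizontal axis) for both probes of Cdkn2b, for Cdkn1c and for Ccnd2. Each point is a mouse, and mice whose arrays lay on the same slide are joined. For the brightest Cdkn2b probe the line ends higher at 162 µg than at control on 4 of 4 slides, and for Cdkn1c the 18 µg mouse lies below the control on 4 of 4 slides.

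Cdkn2d (p19, an INK4 inhibitor that rises late in G1 and in S phase) had log2 ratios of -1.18, -0.52, -1.16, -1.21 and -1.25 in controls. It ran from -1.28 to -0.89 with a median of -1.12 at 18 µg, from -1.49 to -0.88 with a median of -1.05 at 54 µg, and from -1.22 to -0.13 with a median of -0.62 at 162 µg. Of the 162 µg lungs 2 of 6 lay above all controls, and the second control mouse stood apart from the other controls. The log2 fold change of Cdkn2d was 0.056 at 18 µg (SE 0.16), 0.061 at 54 µg (SE 0.18) and 0.51 at 162 µg (SE 0.16, 95% interval 0.16 to 0.85, adjusted p = 0.0822 in limma), which did not pass. Within slides Cdkn2d was higher at 162 µg than in the control on 4 of 4, by a mean of 0.57. The call at 162 µg appeared without control replicate 2 (0.67, adjusted p = 0.0209 in limma) or without 162 µg replicate 6 (0.60, adjusted p = 0.0221 in limma).

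Cdkn2c (p18, an INK4 inhibitor) had a value in 18 of 22 lungs, since the spot was marked as an outlier on 1 control array, 1 array at 54 µg and 2 at 162 µg, and the fit left those arrays out. Its log2 ratio ran from -2.06 to -1.30 in 4 controls and from -1.54 to -1.16 in the 6 lungs at 18 µg. At 54 µg it ran from -1.90 to -1.21 in 4 lungs, and at 162 µg from -1.96 to -0.85 in 4 lungs. The groups overlapped throughout. The log2 fold change of Cdkn2c was 0.30 (95% interval -0.04 to 0.64, adjusted p = 0.395 in limma) at 18 µg, 0.046 (adjusted p = 0.984) at 54 µg and 0.12 (adjusted p = 0.809) at 162 µg.

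Of the CIP/KIP inhibitors, Cdkn1c (p57, an imprinted gene that holds cells out of the cycle) differed between the lowest and the highest dose. Its log2 ratio was 3.44, 3.99, 3.89, 3.55 and 3.68 in control lungs and ran from 2.15 to 3.44 with a median of 3.06 at 18 µg. At 54 µg it was 3.19, 4.14, 4.19, 4.34 and 3.32, and at 162 µg it ran from 3.19 to 4.35 with a median of 4.30. All 6 lungs at 18 µg were below the lowest control, the highest of them only just, and 4 of 6 at 162 µg were above the highest control. Against controls the log2 fold change of Cdkn1c was -0.71 (SE 0.27, 95% interval -1.29 to -0.14, adjusted p = 0.204 in limma) at 18 µg, 0.30 (adjusted p = 0.867) at 54 µg and 0.42 (SE 0.27, adjusted p = 0.479) at 162 µg, none of which passed. From 18 to 162 µg it was 1.14 (SE 0.26, adjusted p = 0.0168 in limma), or 2.20-fold, which was called. Between 54 and 18 µg the log2 fold change of 1.01 (SE 0.27, adjusted p = 0.207 in limma) did not pass, and 162 and 54 µg differed by 0.12.

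Within slides, Cdkn1c was lower at 18 µg than in the control on 4 of 4, with a mean difference of -0.72 on the log2 scale (SD 0.60), and higher at 162 than at 18 µg on 4 of 5, by a mean of 1.25 (SD 0.87). The 18 µg lungs fell into 4 between 2.88 and 3.44 and the pair of replicates 4 and 5 at 2.16 and 2.15. Without 18 µg replicate 4 the difference of Cdkn1c between 162 and 18 µg was 0.91 (adjusted p = 0.0548 in limma) and without 18 µg replicate 5 it was 0.94 (adjusted p = 0.0530 in limma), so that the call rested on both. It was lost as well without the 4 arrays of slide 7 (0.99, adjusted p = 0.0821 in limma), an alternative added after the data had been seen.

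Cdkn1b (p27, a CIP/KIP inhibitor that is mainly regulated through its breakdown) had log2 ratios of 0.02, 0.64, 0.17, 0.49 and 0.70 in controls. It ran from 0.06 to 0.47 with a median of 0.28 at 18 µg, from -0.35 to 0.37 with a median of -0.10 at 54 µg and from -0.35 to 0.31 with a median of 0.11 at 162 µg. The groups overlapped, with 3 of 5 lungs at 54 µg and 2 of 6 at 162 µg below all controls. For Cdkn1b the fitted log2 fold change was -0.042 at 18 µg, -0.28 (95% interval -0.59 to 0.03, adjusted p = 0.648 in limma) at 54 µg and -0.30 (95% interval -0.59 to -0.0076, adjusted p = 0.263) at 162 µg.

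**Figure D3:**
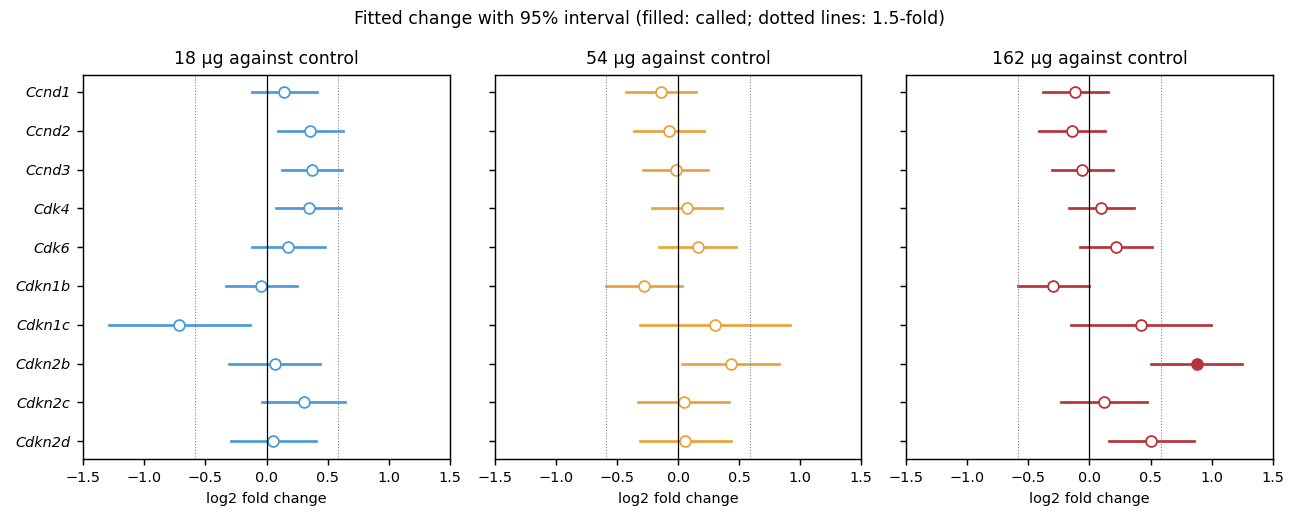
Fitted log2 fold change against controls (horizontal axis) for the brightest probe of each member at 18, 54 and 162 µg. Lines are 95% intervals of the limma fit before adjustment, filled points are called and dotted lines mark 1.5-fold. Cdkn2b at 162 µg, at 0.88, is the only filled point, and the 3 D-type cyclins lie above 0 at 18 µg, where median centring turned their sign, and just below 0 at the other doses.

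The 3 D-type cyclins had higher fitted values at 18 µg than at either other dose, though none was called against controls. Ccnd2 (cyclin D2) had log2 ratios of -0.14, -0.15, -0.09, -0.28 and -0.43 in control lungs and ran from -0.22 to 0.51 with a median of 0.12 at 18 µg. At 54 µg it was -0.12, -0.06, -0.55, -0.32 and -0.55, and at 162 µg it ran from -0.59 to -0.13 with a median of -0.43. Of the 18 µg lungs 4 of 6 lay above all controls, and of the 162 µg lungs 5 of 6 lay below all lungs at 18 µg. The log2 fold change of Ccnd2 was 0.36 (SE 0.13, adjusted p = 0.169 in limma) at 18 µg, -0.074 (adjusted p = 0.953) at 54 µg and -0.14 (adjusted p = 0.658) at 162 µg. From 18 to 162 µg Ccnd2 differed by -0.50 (SE 0.12, adjusted p = 0.0231 in limma), which passed the adjusted p but lay under the 1.5-fold minimum and was not called. Without that minimum 4 members passed between these doses, with Ccnd2 and Ccnd3 beside Cdkn2b and Cdkn1c, against 8.24% of expressed genes. With a mouse left out, the adjusted p in limma reached 0.0838 for Ccnd2 and 0.116 for Ccnd3. Over 17 alternatives the log2 fold change ran from -0.58 to -0.21 for Ccnd2 and from -0.51 to -0.11 for Ccnd3. Both kept their sign in all 17, with highest adjusted p of 0.926 and 0.963 in limma.

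Ccnd3 (cyclin D3, prominent in lymphoid cells) had log2 ratios of 0.76, 1.05, 0.75, 0.34 and 0.45 in controls and ran from 0.88 to 1.27 with a median of 1.05 at 18 µg. It ran from 0.53 to 0.89 with a median of 0.67 at 54 µg and from 0.34 to 0.88 with a median of 0.58 at 162 µg. On the brightest probe every 162 µg lung lay below every 18 µg lung, which held for 1.05% of expressed genes. The margin was narrow (highest at 162 µg 0.875, lowest at 18 µg 0.882), and 3 of 6 lungs at 18 µg lay above all controls. On the second probe 2 of 6 lungs at 162 µg lay below all lungs at 18 µg. The log2 fold change of Ccnd3 on the brightest probe was 0.37 (SE 0.12, adjusted p = 0.121 in limma) at 18 µg, -0.018 (adjusted p = 0.991) at 54 µg and -0.057 (adjusted p = 0.885) at 162 µg. From 18 to 162 µg Ccnd3 differed by -0.43 (SE 0.11, adjusted p = 0.0341 in limma), also under the fold minimum. Its second probe gave 0.58 (SE 0.22, adjusted p = 0.191 in limma) at 18 µg, 0.051 (adjusted p = 0.985) at 54 µg and 0.12 (adjusted p = 0.871) at 162 µg, and -0.46 (adjusted p = 0.257) between 162 and 18 µg, where both probes of Ccnd3 had the same sign.

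Ccnd1 (cyclin D1, the D-type cyclin of most epithelial cells) had log2 ratios of 0.82, 1.05, 1.00, 0.80 and 0.80 in controls. At 18 µg it ran from 0.77 to 1.38 with a median of 1.01, at 54 µg from 0.69 to 0.84 with a median of 0.71, and at 162 µg from 0.39 to 1.16 with a median of 0.85. All groups overlapped the controls. For Ccnd1 the fitted log2 fold change was 0.15 (95% interval -0.12 to 0.41, adjusted p = 0.655 in limma) at 18 µg, -0.14 (95% interval -0.43 to 0.15, adjusted p = 0.868) at 54 µg and -0.12 (95% interval -0.38 to 0.15, adjusted p = 0.742) at 162 µg.

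The direction of the D-type cyclins at 18 µg depended on how the arrays were scaled. With arrays centred on their median, the median of all genes moved to -0.26 at 18 µg, and the log2 fold change was -0.056 for Ccnd2, -0.076 for Ccnd3 and -0.29 for Ccnd1, or 0.20, 0.18 and -0.03 relative to that median. Within slides Ccnd2 was higher at 18 µg than in the control on 4 of 4 (mean 0.31) and Ccnd3 on 4 of 4 (mean 0.41), and at 162 µg both were lower than at 18 µg on 5 of 5. Markers of B cells, which express both cyclins, moved in the same comparison: 5 of 5 were lower at 162 than at 18 µg with a median log2 fold change of -0.80, and Ms4a1 (-1.61) and Cd79b (-1.02) were called. With median centring the 5 were also lower, with a median of -0.55, and with no normalization 4 of 5 were. The summed Cy5 signal of the 5 B cell markers, in units of the 75th percentile of each array, ran from 8.99 to 19.7 in controls, from 11.3 to 22.7 at 18 µg, from 6.32 to 16.8 at 54 µg and from 6.97 to 11.2 at 162 µg. All 5 passed the filter on expression. Markers of T and natural killer cells also moved in this comparison: 1 of 7 was higher at 162 than at 18 µg, with a median of -0.24 and Lck called lower. With median centring 0 of 7 were higher. The part of B cells, or of T and natural killer cells, in the values of Ccnd2 and Ccnd3 was not tested. In whole lung RNA, fewer cells of a type and less RNA per cell cannot be told apart.

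Cdk4, the kinase partner of the D-type cyclins, had log2 ratios of -1.35, -1.09, -1.32, -1.32 and -1.03 in controls on its brightest probe. It ran from -1.09 to -0.70 with a median of -0.95 at 18 µg, from -1.93 to -0.83 with a median of -1.13 at 54 µg and from -1.42 to -1.06 with a median of -1.12 at 162 µg. At 18 µg 3 of 6 lungs lay above all controls, and the other groups overlapped them. For Cdk4 the fitted log2 fold change was 0.34 (SE 0.13, adjusted p = 0.190 in limma) at 18 µg, 0.075 (adjusted p = 0.952) at 54 µg and 0.10 (95% interval -0.17 to 0.37, adjusted p = 0.798) at 162 µg. The other 2 probes of Cdk4 gave 0.26 and 0.11 at 18 µg, -0.0071 and 0.14 at 54 µg and -0.054 and 0.10 at 162 µg, none of them called. With median centring the value at 18 µg changed sign to -0.045, which was 0.21 above the median of all genes, and the value at 162 µg changed sign to -0.17.

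Cdk6, the second kinase of the D-type cyclins, passed the filter on negative controls but was well above its local background on only 6 of 22 arrays, 1 of 5 in controls, 1 of 6 at 18 µg, 2 of 5 at 54 µg and 2 of 6 at 162 µg. Its log2 ratio ran from -0.89 to -0.45 in controls, from -0.99 to 0.15 at 18 µg, from -0.74 to -0.45 at 54 µg and from -0.82 to 0.07 at 162 µg. The fitted log2 fold changes of 0.18, 0.16 and 0.22 at 18, 54 and 162 µg (adjusted p = 0.610, 0.859 and 0.470 in limma) therefore rest on a signal near background.

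Of the remaining inhibitors, Cdkn1a (p21, a CIP/KIP inhibitor and target of p53) rose at 162 µg with a log2 fold change of 1.74 (SE 0.31, adjusted p = 0.00294 in limma), and 5 of 6 lungs lay above all controls. The call was made on 1 of the 2 probes of Cdkn1a. Over 18 alternatives the log2 fold change of Cdkn1a ran from 0.94 to 2.04 and was called in 16 (highest adjusted p = 0.257 in limma). At 54 µg its log2 fold change was 0.74 (SE 0.33, adjusted p = 0.528 in limma) and at 18 µg 0.22 (adjusted p = 0.803). Cdkn2a, the neighbour of Cdkn2b on its chromosome and the source of p16 and p19ARF, was not called at any dose, with 0.54 (SE 0.21, adjusted p = 0.220 in limma) at 18 µg, -0.13 at 54 µg and -0.10 (adjusted p = 0.896) at 162 µg. At 162 µg Cdkn1a and Cdkn2b were called among the 7 inhibitors measured, and Cdkn1b, Cdkn1c, Cdkn2a, Cdkn2c and Cdkn2d were not. At this dose 6.87% of expressed genes were called, and 3.34% were called higher.

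Downstream of the members, calls against controls on the brightest probe of each gene lay at 18 µg. Of 7 expressed genes of cyclins E and A, Cdk2 and its activators, Ccne1 (cyclin E1, 0.82, SE 0.17, adjusted p = 0.0304 in limma) and Ccna2 (cyclin A2, 0.94, SE 0.21, adjusted p = 0.0371) rose at 18 µg and none was called at 54 or 162 µg, while Cdk2 itself was at 0.14, 0.34 and 0.31 at the 3 doses. Ccne1 was above all controls in 6 of 6 lungs at 18 µg, and the share of expressed genes for which that held is not given here. Ccne2 was not expressed. Of 13 expressed pocket proteins and E2F factors, E2f8 rose at 18 µg (0.66, adjusted p = 0.0240 in limma) and no other was called against controls on its brightest probe, with Rb1 at -0.30, Rbl1 at 0.089, Rbl2 at -0.22 and E2f1 at 0.48 at that dose. Of the 2 probes of Tfdp2, the partner of E2F factors, the dimmer was called higher at 162 µg, and the brighter gave 0.53 (adjusted p = 0.0439 in limma), under the fold minimum. Of 19 expressed genes of S phase and mitosis, all had a positive log2 fold change at 18 µg with a median of 0.65, and Mcm2 (0.96), Mcm6 (0.90), Rrm2 (1.21) and Cdk1 (0.84) were called, while Mki67 at 0.85 was not (adjusted p = 0.0752 in limma). Of all 16436 expressed genes, 7622 were positive at 18 µg and 104 were called higher. At 162 µg 18 of the 19 genes of S phase and mitosis were positive with a median of 0.25 and none was called, beside 8017 positive among all expressed genes. With median centring 17 of 19 were positive at 18 µg and 9 of 19 at 162 µg, and with no normalization 10 and 7 of 19, while 19 of 19 lay above the median of all genes at 18 µg under both. Ccne1, Ccna2, E2f8, Mcm2, Mcm6, Rrm2 and Cdk1 kept their positive sign at 18 µg under all 18 alternatives run, the lowest value being 0.076 for Cdk1, but not their calls. Mcm2 was called in 14 of the 18, Rrm2 in 13, Ccne1 in 12, Ccna2 and E2f8 in 10, Mcm6 in 9 and Cdk1 in 8. A second probe of Ccne1 and the other 2 probes of Cdk1 were not called. The calls also changed with single mice: Mcm2 lost its call in 2 of 22 fits that left out a mouse (without control replicate 1 or 18 µg replicate 5), E2f8 in 6, Ccne1 and Rrm2 in 7, Ccna2 and Mcm6 in 11 and Cdk1 in 15. The fits without control replicates 1 or 5 or 18 µg replicates 1, 3 or 5 each ended the calls of Ccne1, Ccna2, E2f8, Mcm6, Rrm2 and Cdk1, and those without control replicate 4 did too.

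From 18 to 162 µg, Ccna2 fell by 0.80 on the log2 scale (adjusted p = 0.0261 in limma), E2f8 fell by 0.66 (adjusted p = 0.00609) and Bub1, a mitotic checkpoint kinase, fell by 0.79 (adjusted p = 0.00600). Tfdp2 rose by 0.86 in the same comparison (adjusted p = 0.00207 in limma). The call of E2f8 was lost without 18 µg replicate 3, and that of Ccna2 in 6 of 22 fits that left out a mouse (18 µg replicate 3 or any of 162 µg replicates 1 to 5). Over 17 alternatives Bub1 and Tfdp2 were called in 14, E2f8 in 11 and Ccna2 in 10, with the sign kept in all 17 and the highest adjusted p = 0.926 in limma. Values of Ccnd2 and Ccnd3 in this comparison were -0.50 and -0.43, as given above, and those of Cdkn2b and Cdkn1c 0.81 and 1.14.

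Among 12 expressed genes for the breakdown of cyclins and inhibitors, Cks1b, a cofactor in the breakdown of Cdkn1b, rose at 18 µg (0.90, adjusted p = 0.0317 in limma). At 162 µg Fbxo31, which targets cyclin D1 for breakdown after DNA damage, rose (0.73, adjusted p = 0.0256 in limma) and Skp1, a subunit of SCF ubiquitin ligases, fell (-0.68, adjusted p = 0.0238). Fbxo31 was also higher at 162 than at 18 µg, by 1.18 (adjusted p = 0.000987 in limma). Against controls, its call was lost in 7 of 22 fits that left out a mouse (control replicates 3, 4 or 5 or 162 µg replicates 1, 2, 3 or 5) and that of Skp1 in 5 (control replicates 3, 4 or 5 or 162 µg replicates 1 or 6), while that of Cks1b at 18 µg was lost in 7 (control replicates 1, 4 or 5 or 18 µg replicates 1, 3, 4 or 5). Over 18 alternatives Cks1b was called in 14, Fbxo31 in 13 and Skp1 in 12. Skp2 was not on the array by its RefSeq accession. Of 16 expressed upstream regulators 1, Myc, was called, at 162 µg (0.98, SE 0.17, adjusted p = 0.00310 in limma), with 5 of 6 lungs above all controls and the call made in 16 of 18 alternatives. The log2 fold change of Myc was 0.48 at 18 µg and 0.67 at 54 µg, and that of Cdk4, whose upstream sequence is printed above, 0.34, 0.075 and 0.10 at the 3 doses.

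**Figure D4:**
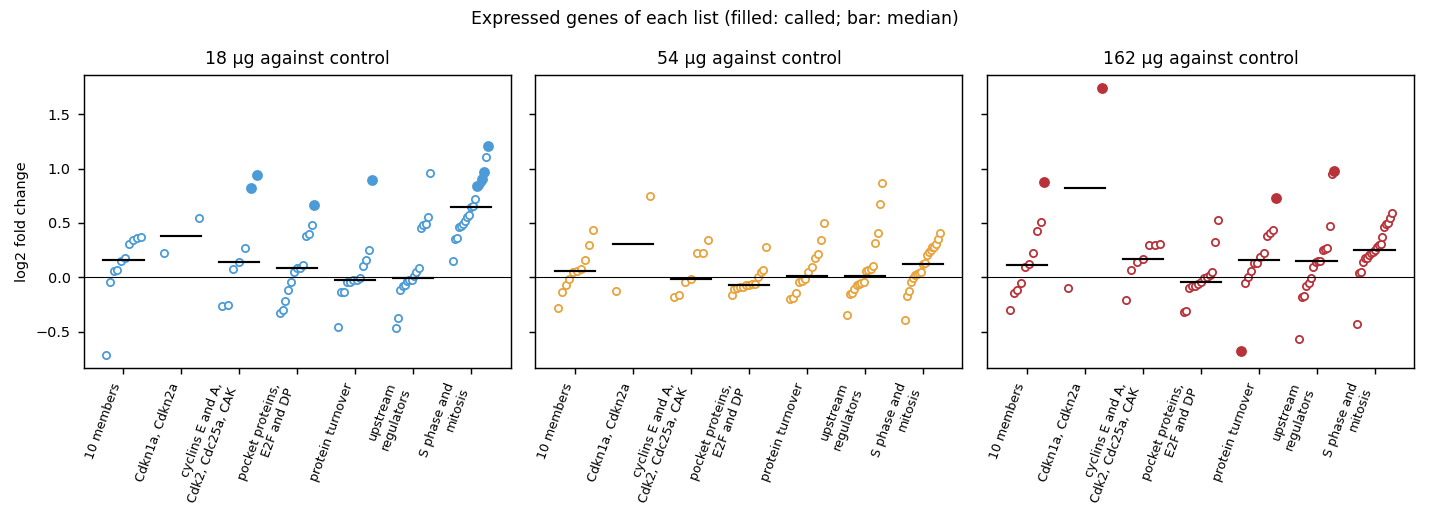
Log2 fold change against controls (vertical axis) of each expressed gene in the members and the other G1 pathway lists (horizontal axis) at 18, 54 and 162 µg. Filled points are called and bars are list medians. The S phase and mitosis genes have a median of 0.65 at 18 µg and 0.25 at 162 µg, while the 10 members have medians of 0.16 and 0.11.

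Over the 22 lungs, the expressed genes whose log2 ratio ran most like that of Cdkn2b were Smc6 (Pearson r = 0.858), Tecrl (0.854) and Nsmce2 (0.842), given as a description since the arrays share slides and groups. Smc6 and Nsmce2 are parts of the same chromosome maintenance complex. At 162 µg their log2 fold changes were 0.42 for Smc6 (adjusted p = 0.0919 in limma), 1.05 for Tecrl (adjusted p = 0.0173) and 0.45 for Nsmce2 (adjusted p = 0.0204, under the fold minimum), beside 0.88 for Cdkn2b.

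Markers of other cell types also moved with dose. Of all 16436 expressed genes, 7622 were positive at 18 µg, 8017 at 162 µg and 8428 between 162 and 18 µg. At 162 µg, where Cdkn2b was higher, 7 of 8 neutrophil markers were positive with a median log2 fold change of 0.66 and none was called. Their summed Cy5 signal had a median of 219.9 (from 101 to 426), beside 139 (from 123 to 503) in controls. Airway epithelial markers were negative in 5 of 5, with Cyp2f2 (-1.004) and Tppp3 (-0.91) called, B cell markers in 4 of 5, with Ms4a1 (-0.89) called, and T and natural killer cell markers in 5 of 7, with Lck (-0.83) called. Fibroblast markers were negative in 5 of 6 (Col3a1 called, -0.96) and macrophage markers in 6 of 9 (Marco called higher, 1.51). Alveolar epithelial markers were positive in 5 of 9 (Pdpn called higher, 1.04), but in 1 of 9 with median centring. Endothelial markers were positive in 6 of 7, smooth muscle markers in 3 of 5 and erythroid markers in 2 of 4, with none called. With median centring these counts were 2 of 7, 2 of 5 and 0 of 4. At 18 µg, where Cdkn1c was lowest, the median log2 fold change was -0.31 for smooth muscle, -0.28 for fibroblast and -0.53 for airway epithelial markers with none called, and 0.22 for endothelial markers with Kdr called, which turned to -0.087 with median centring. Also at 18 µg, where the genes of S phase and mitosis were positive, 6 of 9 macrophage markers were positive with Chil3 called higher (1.73). The median log2 fold change of the 9 was 0.22, and with median centring 4 of 9 were positive. The summed Cy5 signal of the macrophage markers, in which bright genes weigh most, had a median of 462 beside 189.7 in controls. At that dose 5 of 5 B cell markers were positive with none called, and 4 of 5 with median centring. Between 162 and 18 µg, where Cdkn1c and Cdkn2b were called, 8 of 8 neutrophil markers were positive with a median of 0.67 and none called. In that comparison Pdgfra of the fibroblast list (0.91) and Des of the smooth muscle list (0.61) were called higher. Called lower were Col3a1 of fibroblasts (-1.17), Adgre1 (-0.63) and Itgax (-0.64) of macrophages, Lck of T cells (-0.76), Kdr of endothelium (-0.59) and Tppp3 of airway epithelium (-0.88), beside the B cell markers given above. Every marker on the array passed the filter on expression, and the part of these cells in the values of the members was not tested.

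Median Cy5 signal over local background was 1.18 to 2.50 across arrays. The array of 162 µg replicate 6 was lowest. On the brightest probes that lung was also the lowest of its group for Cdkn1c, Cdkn2b and Cdkn2d. The arrays of 18 µg replicates 4 and 5, on which the Cdkn1c call rested, were at 1.32 and 1.35. That of 18 µg replicate 6 was at 1.24, with a Cdkn1c log2 ratio of 3.24. The part of array signal in these values was not tested. No spot of a member was saturated on any array.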

How the data were processed

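RNA of 22 mouse lungs was analysed, 5 controls and 6, 5 and 6 at 18, 54 and 162 µg. The authors deposited median spot intensity values in both channels, without background subtraction or normalization, read per the file headers by Feature Extraction 10.7.3.1 (another version is given in the methods). They also deposited log2 ratios whose normalization is not given in the sources used here. These ratios correlated with the loess values at 0.834 to 0.998 per array, had medians of -0.05 to -0.02, ran in the same direction, and served as an alternative. Outlier flags set by the scanner software (other) removed spots.

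Cy5 over Cy3 on the log2 scale was normalized array by array with loess (span 0.3), and replicate spots were summarized by their median for 55681 probes. Dyes were not swapped, so dye bias cancels between groups but not in a level. A linear model with terms for dose and slide was fitted by limma 3.58.1 (in R 4.3.3 with the data.table package, version 1.17.8) and left 12 residual degrees of freedom, and two-sided p received the Benjamini-Hochberg adjustment over every probe. limma stands in for the permutation F test of the methods. Scan times divided the arrays exactly as slides did. A probe was expressed where Cy5 lay above the 5% trimmed mean plus 3 trimmed SD of 308 negative control spots in 80% or more of any group. RefSeq accessions named 26413 probes, and the brightest probe stands for its gene.

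Named genes are the 10 members, the G1 pathway genes that were called, 12 fixed pathway genes, the 3 genes most like a called member, and markers that moved. The members and lists were chosen with earlier results of these data known. A gene of the marker lists is not reported here and was left out of their counts. Tested on simulated data (36388 probes), the fit called 74.6%, 64.2% and 74.6% of probes changed by a log2 of 1 at 18, 54 and 162 µg. Of probes changed by 1.5-fold, which is the fold minimum itself, it called 17.9%, 23.9% and 25.4%. The number of arrays limits the precision, and the median standard error was 0.131, 0.140 and 0.131. Alternatives changed the background correction, scaling, slide term, filters, thresholds and probe summary, or left out mice. No 2 arrays held the same values. Figures were drawn with matplotlib 3.10.9 in Python 3.11.15.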

Additional observations from a re-analysis of the deposited data

Results flagged for a closer look

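Among 40 groups of 4 to 6 lungs examined, 3 held a lung far from the others of its group, and about 1 in 20 groups would by chance. Cdkn2b in the fifth mouse at 54 µg had a log2 ratio of 0.30, with the nearest other lung at 0.97. Cdkn1c in the sixth mouse at 162 µg was at 3.19, with the nearest at 3.96. Cdkn2d in the second control mouse was at -0.52, with the nearest at -1.16.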

How the results depend on the processing

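Cdkn2b was higher at 162 µg than in controls under all 18 alternatives, by 0.52 to 1.02 on the log2 scale, and was called in 13. The call ended with median centring (0.54, adjusted p = 0.529), no normalization (0.52, adjusted p = 1.00), no slide term (0.72, adjusted p = 0.0554) and only the 2 groups in the fit (0.91, adjusted p = 0.0540), which left 0 members called in each. Between 162 and 18 µg, median centring and no normalization gave Cdkn2b 0.86 and 1.00 and Cdkn1c 1.03 and 1.17, with 0 members called in both, beside 4 with no fold minimum (Cdkn2b, Cdkn1c, Ccnd2 and Ccnd3) and 1 without the arrays of slide 7, an alternative chosen after seeing the data. With a mouse left out, 1 to 2 members were called at 162 µg, 1 to 3 between 162 and 18 µg, and 0 at 18 µg, at 54 µg, between 54 and 18 µg and between 162 and 54 µg. The cause was not tested.

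The labels do not say whether replicate numbers pair the mice, and the values did not settle it. Of same-numbered pairs 20 of 31 deviated together with a correlation over 0.1, the lowest was -0.169, and 12 of 22 arrays correlated best with their own number. On different slides the median correlation was 0.107 for same-numbered pairs (10 of 20 over 0.1) and -0.078 for the others (30 of 137). On the same slide the medians were 0.267 and 0.255. With the replicate block beside slide, 0 members were called at 162 µg (Cdkn2b 0.75, adjusted p = 0.196) and 0 between 162 and 18 µg (Cdkn2b 0.71, adjusted p = 0.0929, Cdkn1c 1.14, adjusted p = 0.0675). With the replicate block in place of slide, Cdkn2b was called at 162 µg (0.80, adjusted p = 0.0130).

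Signs turned only for values against controls that were not called. With median centring they were, at 18 µg Ccnd1 -0.29, Ccnd2 -0.056, Ccnd3 -0.076, Cdk4 -0.045, Cdkn2b -0.32, Cdkn2c -0.12 and Cdkn2d -0.33, and at 162 µg Cdk4 -0.17 and Cdkn2c -0.22. With no normalization (which moved the median of all genes to -0.42, 0.13 and -0.21 at 18, 54 and 162 µg) they were, at 18 µg Ccnd1 -0.45, Ccnd2 -0.22, Ccnd3 -0.24, Cdk4 -0.21, Cdkn2b -0.48, Cdkn2c -0.27 and Cdkn2d -0.49, at 54 µg Ccnd1 0.00900, Ccnd2 0.082 and Ccnd3 0.11, and at 162 µg Cdk4 -0.18 and Cdkn2c -0.41. With Cy5 alone they were, at 54 µg Ccnd1 0.043 and Ccnd3 0.16, and at 162 µg Ccnd3 0.047. With the replicate block with slide they were, at 54 µg Ccnd2 0.11, Cdkn1c -0.18 and Cdkn2d -0.23, and at 162 µg Ccnd3 0.032. With the replicate block in place of slide they were, at 18 µg Cdkn2b -0.034, and at 54 µg Ccnd3 0.00020, Cdk4 -0.019 and Cdkn2d -0.022. With the 2 groups alone they were, at 18 µg Cdkn2d -0.053, and at 54 µg Ccnd2 0.053 and Ccnd3 0.042. With the median over probes they were, at 54 µg Ccnd3 0.016 and Cdk4 -0.026, and at 162 µg Ccnd3 0.030 and Cdk4 -0.0083. With no slide term they were, at 18 µg Cdkn2b -0.12 and Cdkn2d -0.039, and at 54 µg Ccnd3 0.00020, Cdk4 -0.019 and Cdkn2d -0.022. With the deposited table they were, at 18 µg Cdkn2d -0.018, at 54 µg Cdk4 -0.045 and Cdkn2d -0.060, and at 162 µg Cdk4 -0.033. With slide 7 left out they were, at 18 µg Cdkn1b 0.10 and Cdkn2d -0.0085, at 54 µg Cdkn2c -0.036 and Cdkn2d -0.016, and at 162 µg Cdkn2c -0.062. With slide as a random block they were, at 18 µg Cdkn2b -0.042. With a mouse left out, ranges that crossed 0 were at 18 µg Cdkn1b -0.11 to 0.072, Cdkn2b -0.17 to 0.20 and Cdkn2d -0.0073 to 0.22, at 54 µg Ccnd2 -0.16 to 0.026, Ccnd3 -0.080 to 0.056, Cdkn2c -0.054 to 0.21 and Cdkn2d -0.038 to 0.18, and at 162 µg Ccnd3 -0.12 to 0.045 and Cdkn2c -0.037 to 0.36.

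Scan time in place of slide was not run, since it divides the arrays as slide does. With these numbers of arrays and a fold minimum of 1.5-fold, most changes near 1.5-fold would be missed. Cdk6 was near background on most arrays.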
